A study of Mus musculus with 2 samples.

Results

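The tricarboxylic acid (TCA) cycle enzymes described here are 9 genes: Cs, Idh3a, Idh3b, Idh3g, Ogdh, Suclg1, Sucla2, Fh1 and Mdh2. They were picked out by symbol, with no threshold on a measured value, but the set was drawn up with earlier results of these data known. All 9 were found among the 22882 gene symbols of the expression files, each on a single row, and all 9 were among the 10489 genes kept for comparison (above 0 FPKM in each library, with 1 FPKM reached in either). FPKM is a fragment count scaled to transcript length and to library size. Levels of different genes are set beside each other below as listed, but such comparisons are rough. Among cardiomyocyte markers in control, Myl2 was listed at 20467 FPKM, Ttn at 8.22 FPKM and Actc1 at 0 FPKM. The heart RNA came from 23-day-old mice of mixed sex on a C57BL6/J background. The control (Med1fl/fl) carried loxP-flanked alleles of Med1, a subunit of the Mediator complex that links transcription factors to RNA polymerase II. The csMed1-/- mice carried the same floxed alleles together with Cre driven by the α-myosin heavy chain promoter, so Med1 was removed from cardiomyocytes and not by design from the other cells of the heart. RNA of 5 mice was pooled for each genotype and 1 library was made from each pool. Med1 itself, the deleted gene, had 3.38 FPKM in control against 0.412 FPKM in csMed1-/- heart. With 1 library each there are no replicates, no spread between animals can be given, no test between genotypes was made for any gene, and "lower" or "higher" below describes these libraries. A library with Cre and no floxed allele was not analysed here.

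The TCA cycle is the oxidative hub of the mitochondrial matrix. Acetyl-CoA from fatty acids, pyruvate and amino acids is joined to oxaloacetate, and the carbon is then oxidized to carbon dioxide while NADH and reduced flavin are passed to the respiratory chain. The heart runs almost wholly on oxidative metabolism and its muscle cells are packed with mitochondria, so transcripts of these enzymes are abundant in heart.

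In the csMed1-/- library all 9 cycle genes were lower than in control, and 7 of the 9 were lower by more than 2-fold, although Idh3g and Mdh2 were higher once the ratios were set relative to cardiomyocyte marker genes (below). Over all kept genes 18.0% were lower by more than 2-fold, and 13.6% were higher by that much. Among the 1020 kept genes with a mean of 100 FPKM or more, the level at which 8 of the 9 lie, 17.2% were lower and 17.3% higher by more than 2-fold. The log2 ratio of csMed1-/- over control had a median of -1.54 for the 9 genes and -0.07 for all kept genes. The members did not move by one common amount. Citrate synthase (Cs) was lowest relative to control, with a log2 ratio of -2.44, and mitochondrial malate dehydrogenase (Mdh2) nearly kept its level, with -0.26.

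**Figure D1:**
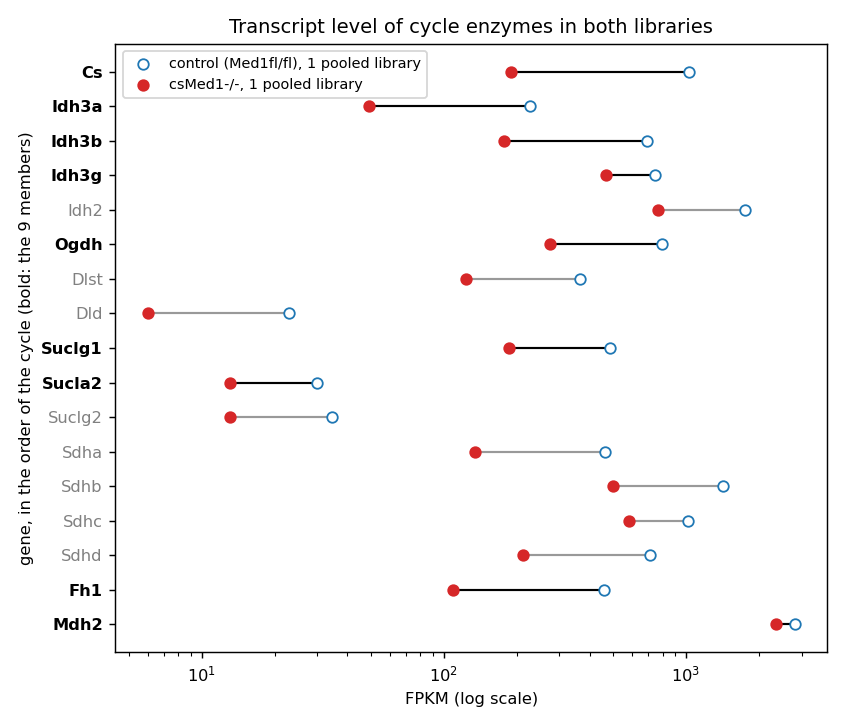
FPKM on a log axis of 17 TCA cycle enzyme genes, ordered along the cycle; open blue circles are the control library, filled red circles the csMed1-/- library, and the line joins the values of one gene (bold names and black lines: the 9 members). Every red point lies left of its blue point, with the widest gap for Cs (1031 to 190.1 FPKM) and the narrowest for Mdh2 (2821 to 2354 FPKM). Set relative to cardiomyocyte markers, the members Idh3g and Mdh2 would point the other way, as would Sdhc among the other genes.

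The sequences just upstream of Cs, Mdh2 and Idh3g are shown because these are the member with the largest decrease and those with the smallest, and because Mdh2 and Idh3g share their upstream DNA with a gene transcribed the other way. They were taken from RefSeq promoter windows (GRCm38.p6), kept to the part before the annotated start of the gene and, for Idh3g, to the part between it and its neighbour. Each is written 5′ to 3′ on the strand of the gene, and capitals mark the GC box GGGCGG or its reverse complement.
Cs, chr10:128337477-128337726, plus strand, 250 bases: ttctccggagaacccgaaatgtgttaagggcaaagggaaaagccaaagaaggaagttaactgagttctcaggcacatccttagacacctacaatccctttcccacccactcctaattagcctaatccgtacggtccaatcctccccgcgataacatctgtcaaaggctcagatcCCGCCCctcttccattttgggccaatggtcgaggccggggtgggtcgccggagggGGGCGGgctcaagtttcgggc
Mdh2, chr5:135778399-135778479, plus strand, 81 bases: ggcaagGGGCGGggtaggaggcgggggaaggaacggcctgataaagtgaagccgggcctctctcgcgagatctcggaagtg
Idh3g, chrX:73786898-73787027, minus strand, 130 bases: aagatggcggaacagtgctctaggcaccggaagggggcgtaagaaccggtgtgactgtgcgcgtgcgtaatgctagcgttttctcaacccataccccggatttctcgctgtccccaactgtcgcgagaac
The Cs stretch holds 2 GC boxes, the Mdh2 stretch 1 and the Idh3g stretch 0. Since the stretches differ in length (250, 81 and 130 bases), these counts cannot be set in order.

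RefSeq promoter windows, each from 250 bases before to 50 bases after a transcript start, were given for 8 of the 9 members, 13 windows in all. Windows of one gene can overlap, and 6 of the 13 belong to Ogdh. On either strand, 0 of the 13 windows held TNAAGGTCA (bound by estrogen-related receptors), which stands in 1.28% of all 32851 windows and in 0.775% of the 9554 windows of kept genes. CCGGAAGT, a site of the ETS factor GABPA, was in 0 of the 13, in 3.89% of all windows and in 7.66% of those of kept genes. The TATA box TATAAA was in 0 of the 13, in 13.6% of all windows and in 7.26% of those of kept genes. GCGCATGCG, the core of the NRF1 site, was in 2 of the 13, in 1.75% of all windows and in 3.49% of those of kept genes. Both are overlapping windows at the most downstream starts of Ogdh and hold the same site, so the match is in 1 member only. The GC box GGGCGG was in 8 of the 13, from 5 genes (Cs, Fh1, Mdh2, Ogdh and Sucla2), in 35.7% of all windows and in 63.3% of those of kept genes. Here too overlapping Ogdh windows hold the same site, which is counted once per window. The GC content of the members' windows ran from 49.3% to 72.3%, around a median of 61% for windows of kept genes. These are matches of letters only.

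Entry of carbon into the cycle was represented by Cs, which encodes citrate synthase, the enzyme that condenses acetyl-CoA with oxaloacetate. Cs (chromosome 10, 128337734 to 128362479, plus strand, GENCODE M21 annotation of GRCm38) had 1031 FPKM in control against 190.1 FPKM in csMed1-/- heart, a ratio of 0.184. It stood 144th in level among all genes of the control library and 593rd in the csMed1-/- library. Only 3.23% of all kept genes had a lower ratio than Cs, which was also lower by more than 4-fold. The Cs transcripts share 2.01% of their 50-base words, the read length used, with Csl, a citrate synthase-like gene. Csl itself was listed at 28.6 and 5.71 FPKM. It shares 6.67% of its own 50-base words with other genes, most of them with Cs, so its values are less certain.

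The NAD-linked isocitrate dehydrogenase, which makes 2-oxoglutarate and is held to be a main control point of the cycle, is built from subunits encoded by Idh3a (catalytic), Idh3b and Idh3g. Idh3a (chromosome 9, 54586334 to 54604661) had 226 FPKM in control against 49.1 FPKM in csMed1-/- heart, a ratio of 0.217. Idh3b (chromosome 2, 130279309 to 130284547) had 693 and 176 FPKM, a ratio of 0.255. Idh3g (chromosome X, 73778963 to 73786897) had 747 and 467 FPKM, a ratio of 0.625. The Idh3a and Idh3b transcripts were thus about equally lower, whereas Idh3g stayed inside 2-fold.
Within a library the scaling between libraries cancels, so ratios between subunits do not depend on it. The FPKM of Idh3g was 3.31 times that of Idh3a in control against 9.52 times in csMed1-/- heart, a shift of 2.88-fold. For Idh3g over Idh3b the shift was 2.45-fold, from 1.08 to 2.65. For Idh3b over Idh3a it was 1.17-fold, from 3.06 to 3.60. The transcripts of this one enzyme were therefore present in different proportions in the csMed1-/- library, by way of Idh3g.

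Ogdh encodes the decarboxylating subunit of the 2-oxoglutarate dehydrogenase complex, the next NADH-producing step. Ogdh (chromosome 11, 6291633 to 6356642) had 795 FPKM in control against 273 FPKM in csMed1-/- heart, a ratio of 0.344, which is the median of the 9 members. Its partner Dlst, the succinyltransferase of the same complex, had 364 and 124 FPKM, a ratio of 0.340. The FPKM of Ogdh was 2.18 times that of Dlst in control against 2.21 times in csMed1-/- heart, so the proportion of these subunits was nearly the same in both libraries. Dld, the lipoamide dehydrogenase that this complex shares with pyruvate dehydrogenase, was listed far lower, at 23.1 and 5.99 FPKM.
Ogdhl, a paralog of Ogdh named for its similarity to it, differed much more, with 72.3 FPKM in control against 1.37 FPKM in csMed1-/- heart (log2 ratio -5.73). The FPKM of Ogdh was 11.0 times that of Ogdhl in control against 200.2 times in csMed1-/- heart. No 50-base word of the Ogdh or Ogdhl transcripts was shared with another gene.

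Succinyl-CoA synthetase releases succinate and forms a nucleoside triphosphate. Suclg1 encodes the α subunit that both forms of the enzyme use, and Sucla2 and Suclg2 encode the alternative β subunits, specific for ADP and for GDP. Suclg1 (chromosome 6, 73248382 to 73276911) had 485 FPKM in control against 186 FPKM in csMed1-/- heart, a ratio of 0.383. Sucla2 (chromosome 14, 73525319 to 73596142) had 29.8 and 13.1 FPKM, a ratio of 0.438, the lowest FPKM of the 9 members in both libraries. Suclg2, which is not a member, had 34.6 and 13.1 FPKM.
The shared subunit was thus listed at a level 16.3 times that of Sucla2 in control against 14.2 times in csMed1-/- heart. The FPKM of Sucla2 was 0.863 times that of Suclg2 in control against 0.997 times in csMed1-/- heart, a shift of 1.16-fold, so the proportion of the ADP-specific to the GDP-specific transcript changed little. Suclg2 shares 16.0% of its 50-base words with a gene annotated as Gm15163, and its values are less certain for that reason.

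The last steps of the cycle are the hydration of fumarate by fumarase (Fh1) and the oxidation of malate by mitochondrial malate dehydrogenase (Mdh2), which regenerates oxaloacetate. Fh1 (chromosome 1, 175600374 to 175625635) had 457 FPKM in control against 109 FPKM in csMed1-/- heart, a ratio of 0.239. Mdh2 (chromosome 5, 135778480 to 135790398) had 2821 and 2354 FPKM, a ratio of 0.834. It had the highest FPKM of the members in both libraries and stood 38th among all genes in control against 39th in csMed1-/- heart. The neighbouring steps of the cycle therefore differed: the FPKM of Mdh2 was 6.17 times that of Fh1 in control against 21.5 times in csMed1-/- heart, a shift of 3.48-fold.
The same held against Cs, the enzyme that uses the oxaloacetate made by Mdh2. The FPKM of Mdh2 was 2.74 times that of Cs in control against 12.4 times in csMed1-/- heart, a shift of 4.53-fold and the largest between any members compared here. Mdh1, the cytosolic malate dehydrogenase of the malate-aspartate shuttle, had 1388 and 466 FPKM, so Mdh2 over Mdh1 also shifted, by 2.48-fold.

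**Figure D2:**
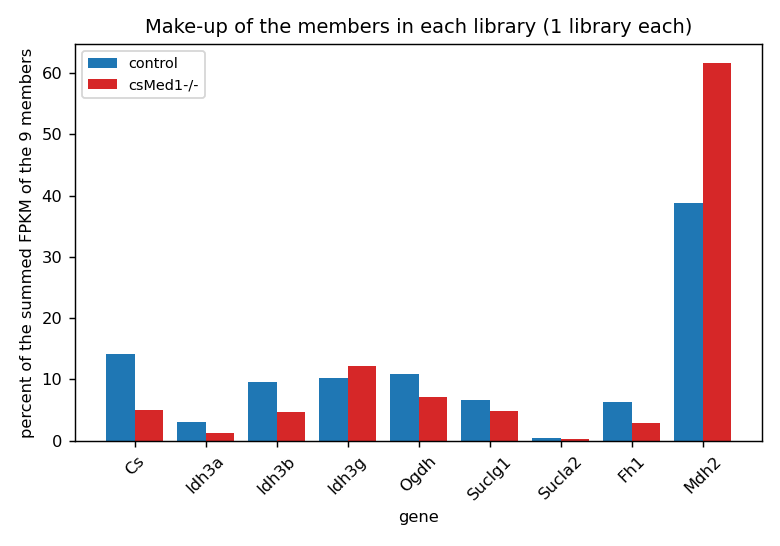
Bars give each member's percent of the summed FPKM of the 9 members, blue for control and red for csMed1-/- heart, 1 library each. Mdh2 makes up 38.7% in control against 61.7% in csMed1-/- heart, while Cs goes from 14.1% to 4.98%.

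The 9 members together held 7286 FPKM in control against 3818 FPKM in csMed1-/- heart, a ratio of 0.524. This sum was carried by Mdh2. Without it the other 8 members summed to 4465 and 1464 FPKM, a ratio of 0.328. The order of the members by level also changed. In control it ran Mdh2, Cs, Ogdh, Idh3g, Idh3b, Suclg1, Fh1, Idh3a and Sucla2, and in csMed1-/- heart it ran Mdh2, Idh3g, Ogdh, Cs, Suclg1, Idh3b, Fh1, Idh3a and Sucla2. Neighbours such as Idh3g (747 FPKM) and Idh3b (693 FPKM) in control, or Cs (190.1 FPKM) and Suclg1 (186 FPKM) in csMed1-/- heart, were close, and without replicates their order cannot be set against a spread. Of the 9 members 3 were lower by more than 4-fold (Cs, Idh3a and Fh1, with Idh3b at 3.93-fold just inside), against 5.14% of all kept genes.

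**Figure D3:**
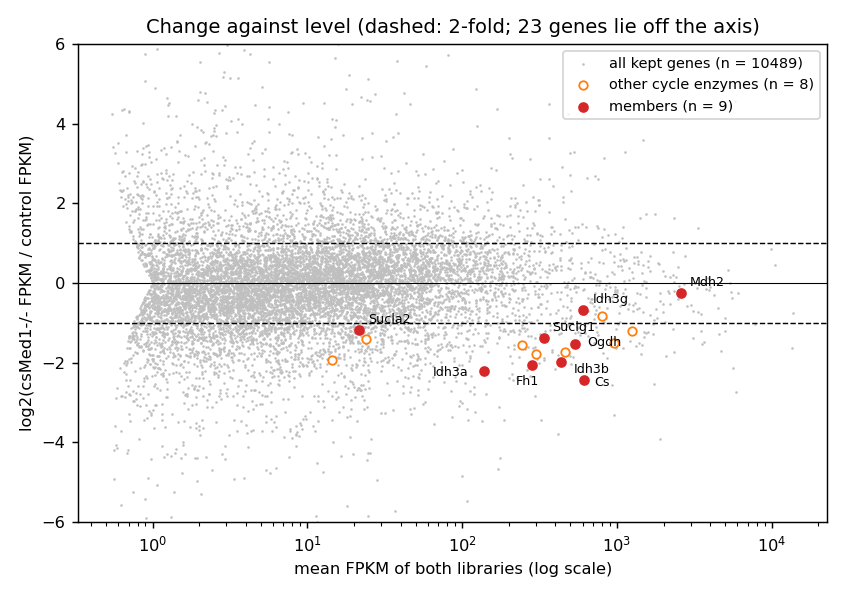
Each grey point is 1 of 10489 kept genes, by mean FPKM of both libraries (log axis) and log2 ratio of csMed1-/- to control FPKM; red points are the 9 members, open orange circles 8 other cycle enzymes, and dashed lines mark 2-fold. All 17 lie below 0 and 14 of them below the lower dashed line, with Mdh2 and Idh3g among the exceptions; 23 genes lie beyond the axis limit of 6.

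Other genes of the cycle were taken from a list of Idh2, Dlst, Dld, Suclg2 and the genes of the succinate dehydrogenase subunits, Sdha to Sdhd. All 8 were lower in the csMed1-/- library and 7 by more than 2-fold, with Sdhc inside 2-fold. Sdha had 463 FPKM in control against 135 FPKM in csMed1-/- heart, Sdhb 1427 and 499 FPKM, Sdhc 1024 and 579.7 FPKM, and Sdhd 708 and 213 FPKM. These subunits pass electrons from succinate to the respiratory chain. The log2 ratios of the 8 genes ran from -1.94 (Dld) to -0.82 (Sdhc), with a median of -1.54, and the median of the members was also -1.54. The members were more spread, from -2.44 to -0.26. Idh2, the NADP-linked mitochondrial isocitrate dehydrogenase, had 1745 and 764 FPKM, and its ratio to Idh3a shifted from 7.72 to 15.6.

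A further list held paralogs and cytosolic counterparts of cycle enzymes, among them Ogdhl, Csl and Mdh1, given above. Of its 6 kept genes, 5 were lower in the csMed1-/- library. Idh1, the cytosolic NADP-linked isocitrate dehydrogenase, had 9.47 FPKM in control against 2.18 FPKM in csMed1-/- heart. Aco1, the cytosolic aconitase and iron regulatory protein, had 22.7 and 11.2 FPKM. Acly, which splits citrate in the cytosol to give acetyl-CoA for lipid synthesis, was the only kept gene of this list that was higher, at 13.6 and 16.0 FPKM, inside 2-fold. Dhtkd1, a relative of Ogdh that acts in lysine breakdown, was at 0.157 and 0.132 FPKM, under the limit for a comparison. Upstream of the cycle, the pyruvate dehydrogenase genes Pdha1 (127 and 39.3 FPKM), Pdhb (447 and 185 FPKM) and Dlat (73.7 and 25.6 FPKM) were lower by more than 2-fold, and Pdhx (35.7 and 18.8 FPKM) was lower inside 2-fold. The median log2 ratio of these 4 was -1.40. Pdha1 shares 12.9% and Pdhb 11.4% of their 50-base words with other genes, so their values are less certain too.

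Mdh2 and Idh3g, the members that stayed inside 2-fold, are also the members whose start lies within 1 kb of the start of a gene on the opposite strand. The annotated starts of Mdh2 and Styxl1, which encodes a phosphatase-like protein, are 95 bases apart, and those of Idh3g and Ssr4, a subunit of the endoplasmic reticulum translocon-associated complex, are 131 bases apart. Both neighbours were higher in the csMed1-/- library. Ssr4 had 135 FPKM in control against 333 FPKM in csMed1-/- heart, and Styxl1 had 0.0944 and 1.25 FPKM, a level too low in control for a useful fold. The neighbours were looked up after the members' ratios were known, and with so few genes no relation between position and change was tested.
Overlapping genes on the opposite strand included Kmo at Fh1 and Nop56 at Idh3b. They were listed at 0.119 and 13.3 FPKM in control, both below the member they overlap. The libraries were directional, but whether strand was used in counting is not given in the sources used here.

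Among regulators known for their hold on mitochondrial genes, Esrra, which encodes the estrogen-related receptor α, had 127 FPKM in control against 61.4 FPKM in csMed1-/- heart, a log2 ratio of -1.05. Esrrb, a related receptor, had 19.7 and 17.1 FPKM. The coactivator gene Ppargc1a had a log2 ratio of -2.21 and the fatty acid receptor gene Ppara -2.90. The related coactivator gene Ppargc1b had -1.47 as the sum of 2 rows that differed: one was at 1.38 FPKM in control against 1.37 FPKM in csMed1-/- heart, and the other at 3.49 against 0.384 FPKM, a log2 ratio of -3.18. Nrf1, a factor that acts on respiratory chain genes, had 5.07 and 5.65 FPKM, and Ppard 32.7 and 27.0 FPKM. Esrrg (0.917 and 0.637 FPKM) and Gabpa (0.665 and 0.527 FPKM) were too low to be kept. Perm1 was not found under that symbol. Earlier symbols were not searched, so Perm1 may be listed under another name and is not in the count that follows. Of the 7 regulators kept, 4 were lower by more than 2-fold and 0 were higher by that much.

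The cycle genes were not alone among mitochondrial genes. Of 10 genes listed for outer membrane pores, import and chaperones, 10 were lower and 7 passed 2-fold, with a median log2 ratio of -1.36. Lowest relative to control were the matrix chaperone genes Hspa9 (99.9 FPKM in control, 3.99-fold lower) and Hspd1 (27.0 FPKM in control, 3.46-fold lower), and least lowered were the import genes Tomm20 (19.9 and 15.5 FPKM) and Tomm40 (82.2 and 44.4 FPKM). Set relative to the median of these genes, the median of the 9 members was -0.18, only Cs remained lower by more than 2-fold (log2 ratio -1.08), Mdh2 was higher by that much (1.10), and Idh3g (0.68) and Sucla2 (0.17) were higher inside 2-fold.

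**Figure D4:**
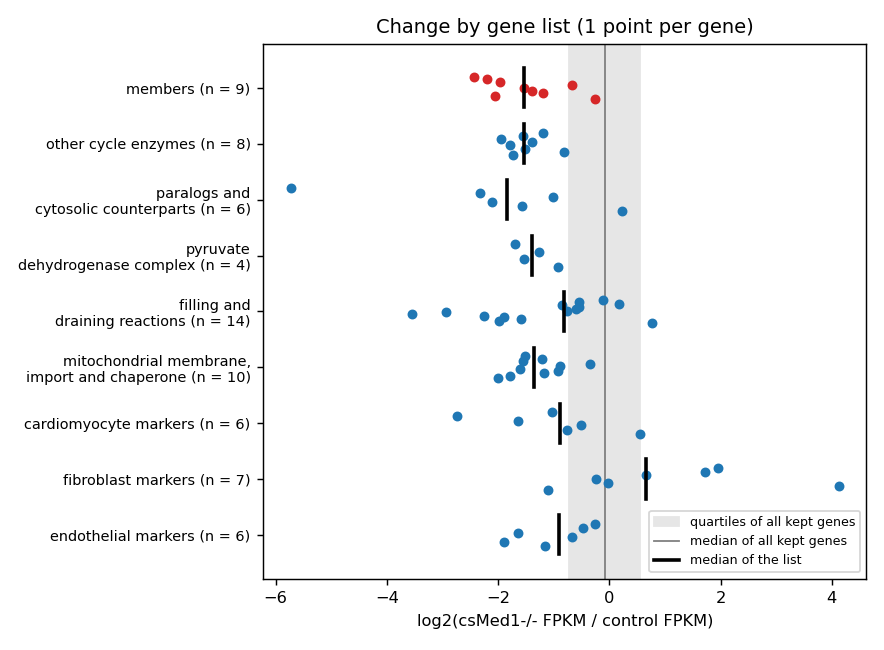
Each point is 1 kept gene, placed by its log2 ratio of csMed1-/- to control FPKM; black ticks are list medians, the grey band spans the quartiles of all kept genes (-0.72 to 0.55) and the grey line their median. Most of the 9 members lie left of the band, as do most other cycle, pyruvate dehydrogenase and mitochondrial genes, while fibroblast markers run from -1.11 to 4.13. Of the members, Idh3g and Mdh2 change sign when set relative to cardiomyocyte or mitochondrial genes, and Sucla2 relative to mitochondrial genes.

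The samples were whole heart, so fewer cardiomyocytes and less RNA per cardiomyocyte cannot be told apart. Cardiomyocyte markers were present in both libraries, as the tissue label says. Of the 8 markers listed, Myh6 was not found under that symbol and Actc1 could not be compared. Of the other 6 markers, 5 were lower and 3 of them by more than 2-fold. These 6 summed to 51664 FPKM in control against 21402 FPKM in csMed1-/- heart, a ratio of 0.414. The sum of the 9 members had a ratio of 0.524 with Mdh2 and 0.328 without it. The median log2 ratio of the 6 markers was -0.89, from -2.74 (Tnni3) to 0.56 (Actn2). Actc1, the cardiac actin gene, was listed at 0 FPKM in control against 9189 FPKM in csMed1-/- heart, and since every heart muscle cell uses it the 0 may be a failed estimate. With Actc1 included the marker sum in csMed1-/- heart would be 30591 FPKM, a ratio of 0.592. That ratio takes the doubtful 0 in control as it stands, so Actc1 adds to the csMed1-/- sum only. Relative to the median of the 6 markers, the median log2 ratio of the 9 members was -0.65 and 4 of them (Cs, Idh3a, Idh3b and Fh1) were lower by more than 2-fold, whereas Idh3g (0.21) and Mdh2 (0.63) were higher.
Fibroblast markers were mixed: of 7, 4 were higher, with Postn, Col1a1 and Col1a2 past 2-fold, and 3 were lower, with Lum past 2-fold. Their summed FPKM, 492 in control against 1168 in csMed1-/- heart, was carried by Col1a1 (129 and 502 FPKM) and Col1a2 (95.7 and 314 FPKM). All 6 endothelial markers were lower, 3 by more than 2-fold (404 and 263 FPKM summed). Smooth muscle and pericyte markers summed to 660.4 and 464 FPKM, with 1 of 5 lower and 1 higher by more than 2-fold, and macrophage markers to 47.9 and 62.2 FPKM, with 1 of 4 kept genes higher by that much. Of 7 erythroid markers listed, only 1 was found under its own symbol, Alas2, at 35.8 and 82.1 FPKM, past 2-fold. The globin genes Hbb-b1 and Hbb-b2 were present under a joined symbol and were not counted. Their joined entry was far more abundant than Alas2 and was higher in csMed1-/- heart, inside 2-fold. Of the adipocyte markers Cfd and Lep were at 0 in both libraries, and Adipoq and Plin1 were at 0 in control and near 0 in csMed1-/- heart. The part of cell composition in the lower cycle transcripts was not tested.

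Summed FPKM was 780366 in control against 716365 in csMed1-/- heart, and 9965 and 9742 genes reached 1 FPKM. The number of reads is not given in the files. Among 2461 rows with low values (above 0 and up to 0.15 FPKM in both libraries), the most common ratio was 0.721. Only 64 of these rows lay within 0.5% of that ratio, so it gives a weak estimate of depth. If it stands for 1 read in each library and values were scaled to mapped fragments alone, the csMed1-/- library would be 1.39 times as deep as control. In each library 6 genes were listed at 0 that had 100 FPKM or more in the other, and none of the 9 members was among them.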

How the data were processed

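Heart RNA from 5 Med1fl/fl and 5 csMed1-/- mice was pooled by genotype and sequenced as 1 library each. The authors aligned directional 50-base single-end reads to mm10 with TopHat (v2.0.8b) and made the deposited FPKM values with Cufflinks and cuffdiff (v2.1.1) from UCSC-annotated genes; the submitters' notes also name STAR and DESeq2, with no role given. The scaling between libraries is not given in the sources used here.

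Rows sharing a symbol were summed, and FPKM in csMed1-/- was divided by FPKM in control for genes above 0 in each library that reached 1 FPKM in either. A change was counted past 2-fold, and no p-value was computed because each genotype has 1 library. Members were taken by symbol, but members, lists and motifs were chosen with earlier results of these data known; the GC box, the neighbouring genes and the background of genes at a mean of 100 FPKM or more were added after values were seen. All members were named, every listed cycle enzyme but one, which is not reported here, and every counterpart, pyruvate dehydrogenase gene and regulator on the lists was reported, and other mitochondrial and metabolic lists were given by counts with their 2 most lowered and 2 highest genes. Cell type markers were given by counts and sums, and those named were chosen after their values were seen. Positions and 50-base words came from GENCODE M21 (GRCm38, the same assembly as mm10), with exact matches in all its transcripts, and promoters from RefSeq. Protein comparisons were not made. Ratios were computed with pandas 2.3.3 and numpy 2.4.6 under Python 3.11.15, figures were drawn with matplotlib 3.10.9, and the ratio step was tested on simulated data.

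Alternatives were pseudocounts of 0.1 and 1 FPKM, other filters, scalings, row choices and thresholds. Centring on cardiomyocyte markers and on mitochondrial genes was added after seeing the data.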

Additional observations from a re-analysis of the deposited data

How the results depend on the processing

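With 1 pooled library per genotype, neither the spread between mice nor that between library preparations can be given, and the absolute depth is unknown. Under pseudocounts of 0.1 and 1 FPKM, filters of 0 and 10 FPKM, centring on the median of kept genes, scaling to the 75th percentile or to the sum without the 100 highest genes, and the highest row alone, the count of members lower by more than 2-fold stayed at 7 of 9, and every member kept its sign. Those scalings moved every log2 ratio by -0.01 to 0.07. The log2 ratio of Cs ran from -2.45 to -2.37, that of Sucla2 from -1.20 to -1.12 and that of Mdh2 from -0.28 to -0.19. At a 4-fold threshold 3 members and 0 of the other cycle enzymes were counted.

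Centring on the cardiomyocyte markers (added after seeing the data) left 4 members and 1 other cycle enzyme lower by more than 2-fold, with medians of -0.65 and -0.64. It turned the members Idh3g (0.21) and Mdh2 (0.63), and Sdhc among the other cycle enzymes reported. Centring on the mitochondrial membrane, import and chaperone genes (also added) left 1 member and 0 others, with medians of -0.18 and -0.17. That centring turned the members Idh3g (0.68), Sucla2 (0.17) and Mdh2 (1.10), and Sdhc and Idh2 among the other cycle enzymes reported. Over all genes, 1886 lower and 1423 higher became 3182 and 2504 with every gene above 0, 885 and 821 at 10 FPKM, 3120 and 2488 at 1.5-fold, 539 and 453 at 4-fold, 620 and 4415 centred on cardiomyocyte markers, and 362 and 6502 centred on mitochondrial genes.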

Other observations

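Reactions that fill or drain the cycle were less uniform than the cycle itself. Of 14 such genes, 12 were lower and 6 of these by more than 2-fold, with 0 higher by that much and a median log2 ratio of -0.81. The alanine transaminase genes Gpt2 (16.8 FPKM in control against 1.43 FPKM in csMed1-/- heart, log2 ratio -3.55) and Gpt (40.8 and 5.34 FPKM, -2.93) were lowest relative to control. Pck2, the mitochondrial phosphoenolpyruvate carboxykinase, was highest, at 7.36 and 12.5 FPKM (log2 ratio 0.77), followed by Me2, a mitochondrial malic enzyme, at 2.36 and 2.65 FPKM (0.17). The genes that carry propionyl-CoA to succinyl-CoA, the substrate of Suclg1 and Sucla2, were all lower: Pcca (17.0 and 3.58 FPKM), Pccb (90.9 and 24.5 FPKM), Mcee (195 and 64.9 FPKM) and Mut (5.27 and 1.34 FPKM). They were singled out after their values were seen.

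Of 5 genes found for lipoic acid attachment and complex II assembly, 2 were lower by more than 2-fold, Lipt2 (9.87 and 2.87 FPKM) and Lipt1 (5.45 and 2.05 FPKM). Sdhaf1, a complex II assembly factor, had 45.8 and 50.9 FPKM and Sdhaf2, another, 12.0 and 6.32 FPKM. None of these values has a replicate.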
